A study of Chelidonium majus with 4 samples.

Results

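Among the 232701 contigs assembled from leaf and root RNA of *Chelidonium majus* (greater celandine), 107 had at least 100 counts in each root library and 0 counts in each leaf library. They were chosen by these counts, with the rows that the study's pathway drawing labels with an enzyme left out, so their difference between tissues was fixed by the choice, and any test of it below is not a finding. The count limits were met by 109 rows, and 2 of these carried a label, TR32823|c129122_g1_i1 (*NCS*) and TR14071|c50986_g1_i1 (*P6H*). Leaf and root of greenhouse-grown plants of a single ecotype, with no treatment named, were sequenced in 2 libraries each, which the labels number 3 and 4 in leaf and 2 and 4 in root. The sources describe the libraries of a tissue as biological replicates but do not tie them to separate plants, so any p-value measures the spread between these libraries, which may be technical. The values are read counts estimated with RSEM for each contig, without division by contig length. Contigs of the assembly are reported by identifier, since the sources used here give none of the 107 a gene name and no genome position. The enzyme names in the pathway drawing were the only ones used, and the tissue labels were not checked against marker genes.

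In plants of the poppy family, the root is an organ of uptake and storage and a main site of benzylisoquinoline alkaloid synthesis. Enzymes of this synthesis, such as norcoclaurine synthase (*NCS*), the entry step, and protopine 6-hydroxylase (*P6H*), which acts on the way to sanguinarine, belong to families with several similar genes. A de novo assembly without a genome represents such genes, and the splice forms and alleles of 1 gene, as sets of related contigs called components. Reads that match several contigs of a component are divided among them by RSEM, so the value of 1 contig depends on that division. In bulk tissue, fewer cells of a type and less RNA per cell cannot be told apart.

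The libraries held between 15281682 and 19781065 counts, so that 1 count stood for 0.0506 to 0.0654 CPM (counts scaled to a fixed library total). The root libraries differed in composition. A single component, contigs c1 to c33, made up 22.1% of root 2 but 2.41% of root 4. CPM values below were therefore scaled with TMM factors, 0.729 for root 2 and 1.23 for root 4, and counts are given beside them.

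The 107 contigs were moderately abundant in root. Their mean level over the root libraries ran from 6.51 to 113 normalized CPM with a median of 17.6, and 62 of the 107 stood below 20. Ranked by root level over all contigs, the most abundant of them was at position 1554 and the least abundant at 19193. In counts, the median was 169 in root 2 (range 100 to 1680) and 307 in root 4 (range 101 to 2194). At least 1000 counts were reached by 6 of the 107 in root 2 and by 5 in root 4. Together they held 31913 counts of root 2, 0.161% of that library (95% Clopper-Pearson interval 0.160 to 0.163), and 46583 counts of root 4, 0.305% (0.302 to 0.308). These intervals cover counting error only. Without contigs c1 to c33 in the totals the shares were 0.207% and 0.312%. The 107 formed 0.639% of the 16737 contigs with at least 100 counts in both root libraries, and the 10 most abundant of them held 29.0% of all counts of the 107. In leaf, 224 of the 21157 contigs with at least 100 counts in both leaf libraries had 0 counts in both root libraries, or 1.06%.

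The most abundant of the 107 was TR39931|c142294_g1_i1, with 1527 counts in root 2 and 2083 in root 4, or 113 ± 6.28 normalized CPM (SD, n = 2 libraries). TR43311|c148204_g1_i1 followed with 1518 and 1672 counts, or 101 ± 9.65 normalized CPM. For both, the spread between the root libraries was small beside the level, and each was the only contig of its component. TR6021|c175834_g1_i1 had 1680 counts in root 2 and 685 in root 4 (79.0 ± 57.1 normalized CPM). TR4303|c147849_g1_i1 had 475 and 2194 counts (78.7 ± 63.6), and TR2753|c115824_g1_i1 had 406 and 2070 (72.8 ± 62.1). These contigs had similar means, but TR6021|c175834_g1_i1 was high in root 2 and the other two were high in root 4.

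TR30001|c123399_g1_i1 had 1025 counts in root 2 and 837 in root 4 (60.0 ± 18.2 normalized CPM, n = 2). TR22991|c103170_g1_i1 had 610 and 1336 counts (59.3 ± 22.6). Its normalized level was higher in root 4, and that of TR30001|c123399_g1_i1 was higher in root 2. TR7701|c200572_g1_i1 had 1273 and 346 counts (55.0 ± 50.2), TR14905|c60463_g1_i1 had 1212 and 267 (50.6 ± 50.3), and TR59041|c173932_g1_i1 had 897 and 641 (49.9 ± 19.5). In all of these last 3 the normalized level was higher in root 2. Of the 10 most abundant contigs, 5 had root levels within 2-fold of each other.

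**Figure D1:**
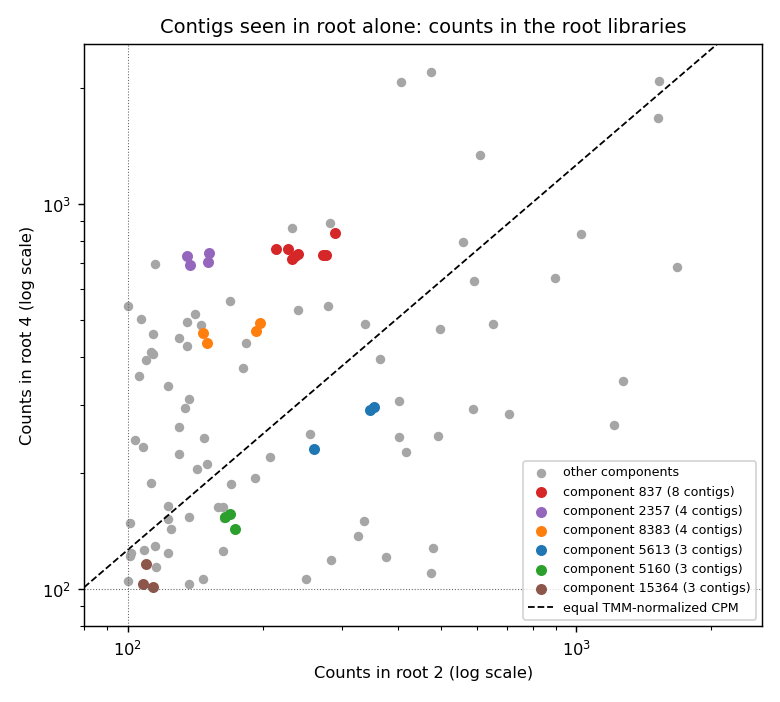
Counts of the 107 contigs in root 2 (x axis) and root 4 (y axis), both on log scales. Each point is a contig, colours mark the 6 components with 3 or more of them, dotted lines mark the limit of 100 counts, and the dashed line marks equal TMM-normalized CPM. Contigs of 1 component lie close together, component 837 above the line and component 5613 below it.

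Since the table holds 0 for the 107 contigs in both leaf libraries, only a lower bound of the root to leaf ratio can be given. The bound was taken on the mean level over the root libraries, with 3 counts over both leaf libraries in place of 0. It ran from at least 84.2-fold to at least 1460-fold higher in root, with a median of 227. It was 1460 for TR39931|c142294_g1_i1 and 645 or more for each of the 10 most abundant contigs. It is not a bound for each root library, since the lower root library of a contig gives a smaller ratio than the mean. Among these 10, TR14905|c60463_g1_i1 had 1212 counts in root 2 but 267 in root 4. The 3 counts in place of 0 correspond to 0.0774 normalized CPM, and the bound on the mean holds for a leaf level up to this. How RSEM's estimates became whole numbers is not stated in the sources used here, so a 0 may also be a rounded fraction of a count.

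Both limits of the choice cut through a continuous range. Just inside the limit of 100 counts lay TR136351|c45734_g1_i1 with 100 counts in root 2 and 105 in root 4, TR96512|c227904_g1_i1 with 100 and 542, and TR153642|c65517_g1_i1 with 114 and 101. Just outside it lay TR111171|c14990_g1_i1 with 99 and 198, TR112941|c17265_g1_i1 with 329 and 98, and TR124291|c31664_g1_i1 with 396 and 97. In the lower of their root libraries, 15 of the 107 stood below 110 counts, and 13 further contigs with 0 leaf counts stood at 90 to 99. On the side of the leaf, 52 unlabelled contigs with at least 100 counts in both root libraries had 1 leaf count in all and 31 had 2. The most abundant of these, TR43161|c147964_g1_i1, had 4023 counts in root 2, 1177 in root 4 and 1 in leaf 4, a higher root level (176 ± 155 normalized CPM) than any of the 107. TR4305|c147851_g1_i1 (998 and 3449 root counts) and TR4302|c147848_g1_i1 (757 and 3052), each with 1 count in either leaf library, followed. With a limit of 50 counts, 301 contigs would have been chosen, with 200 counts 39, and with up to 1 count in each leaf library 172.

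The choice depended more on the root libraries than on the leaf libraries. Without root 2 the same limits gave 552 contigs and without root 4 they gave 328, against 156 without leaf 3 and 157 without leaf 4. To see values in libraries that the choice had not used, contigs were also chosen on 1 root and 1 leaf library and followed in the other pair. Root 2 and leaf 3 gave 394 unlabelled contigs with at least 100 and 0 counts. In leaf 4, 328 of the 394 (83.2%) again had 0 counts, and the highest had 6. Of the 18235 unlabelled contigs with at least 100 counts in root 2, 2.32% had 0 counts in leaf 4, so the 0 in leaf recurred in most of the contigs chosen. In root 4, 157 of the 394 (39.8%) reached 100 counts and 4 had 0, with a median of 62.5, whereas 91.5% of the 18235 reached 100 counts there. The 394 contigs had a median of 156 counts in root 2, near the limit, and the 18235 were not matched to them in level, so the share that reached 100 counts depends on where the limit lies.

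Contigs chosen on root 2 and leaf 4 numbered 423, of which 77.5% had 0 counts in leaf 3 and 36.9% reached 100 counts in root 4. Root 4 and leaf 3 gave 634 contigs, of which 87.1% had 0 counts in leaf 4 and 24.8% reached 100 counts in root 2. With root 4 and leaf 4 the number was 654, and 84.4% and 23.9% did so. More than 10 counts in leaf 3 were found in 14 of the 423 (up to 104) and in 9 of the 654 (up to 117), and in leaf 4 no contig chosen on leaf 3 had more than 8. The 4 choices share libraries and contigs with each other, and no test was made of them.

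**Figure D2:**
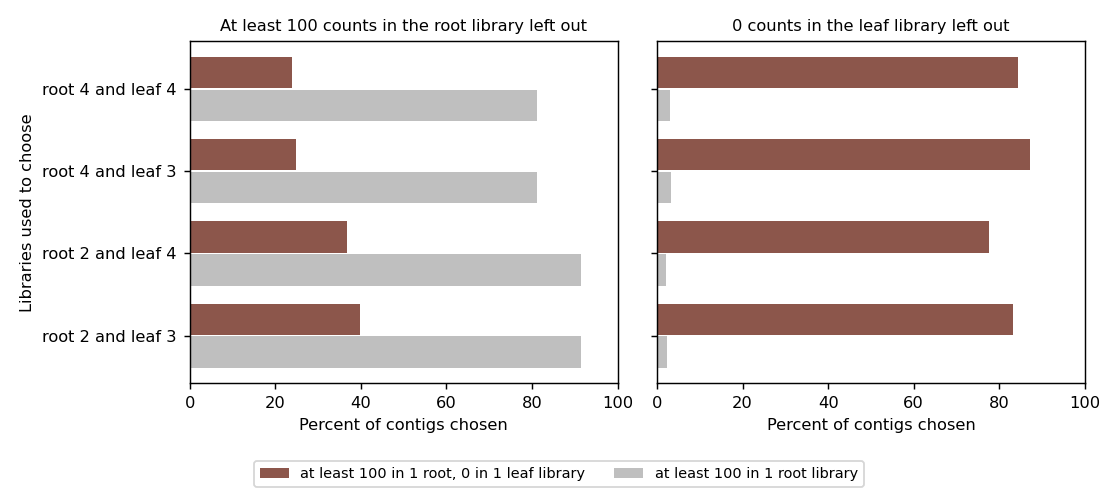
Percent of contigs (x axes) that reached 100 counts in the root library not used for the choice (left) and that had 0 counts in the leaf library not used (right), for the 4 pairs of libraries used (y axis). Brown bars stand for contigs with at least 100 counts in 1 root and 0 in 1 leaf library, grey bars for all unlabelled contigs with at least 100 counts in that root library. Brown bars reach 23.9 to 39.8% on the left and 77.5 to 87.1% on the right.

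The spread between the root libraries was wider over the 107 contigs than over contigs of similar level with leaf counts. The log2 ratio of root 4 to root 2 in normalized CPM had a median of 0.11 over the 107 and an SD of 1.15, with values from -2.52 to 2.27. Counting error alone gives a standard error of 0.05 to 0.20 for this ratio. Within 2-fold in either direction lay 59 of the 107 (55.1%), while 33 were over 2-fold higher in root 4 and 15 over 2-fold higher in root 2. These contigs are not separate, since 51 of the 107 shared a component with another. Taken once per component, from the summed counts of its chosen contigs, 44 of the 75 components lay within 2-fold. Among the 15063 contigs with at least 100 counts in both root libraries, leaf counts and a root level in the same range, the SD was 0.64, the median -0.23, and 89.1% lay within 2-fold. Pearson's r of log2 counts between the root libraries was 0.408 across the 107 contigs and 0.814 across the 15063. It is a description across contigs that share libraries and may share reads. The size of the median depended on scaling. Over the 107 contigs it was positive with TMM, with DESeq2 size factors (0.05), without contigs c1 to c33 (0.49) and with library totals (0.82). Over their 75 components the median with TMM was -0.04, with 37 components above 0 and 38 below. The sign of the median thus depended on whether contigs or components were counted. With library totals 80.4% of the 107 had a higher CPM in root 4, as had 78.3% of all contigs with leaf counts at the same root limit. With TMM the shares were 51.4% and 32.1%. The SD is the same under either scaling. No test of the difference in spread was made. Contigs with 1 or 2 leaf counts, the nearest to the 107, were not compared apart. Some of them differed widely between the root libraries, such as TR10625|c8415_g1_i1 with 2170 and 619 counts. Others differed little, such as TR49511|c158725_g1_i1 with 1024 and 891. The wide spread is therefore not shown to be particular to the 107.

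Furthest towards root 4 was TR125171|c32772_g1_i1 with 115 counts in root 2 and 697 in root 4, a log2 ratio of 2.27. TR96512|c227904_g1_i1 (100 and 542 counts, log2 ratio 2.10), TR23571|c104785_g1_i1 (136 and 730, 2.09), TR2753|c115824_g1_i1 (406 and 2070, 2.02) and TR23574|c104788_g1_i1 (138 and 692, 1.99) came next. At the other end was TR14905|c60463_g1_i1 with 1212 and 267 counts, a log2 ratio of -2.52. TR7705|c200576_g1_i1 (475 and 110 counts, -2.44), TR113591|c18145_g1_i1 (480 and 128, -2.24), TR7701|c200572_g1_i1 (1273 and 346, -2.21) and TR152661|c64424_g1_i1 (376 and 121, -1.97) followed. Both ends thus hold contigs with a large difference between the libraries of the same tissue, in opposite directions.

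The identifiers of the contigs group them into components. The number after c runs from 1 to 232701 without a gap, and the number after TR is a component number followed by an index that rises by 1 with c, so that TR8373|c210147_g1_i1 is the third contig of component 837. Read in this way, the assembly holds 167165 components, of which 84.0% have 1 contig. The 107 contigs belonged to 75 components. A single one of the 107 was found in 56 components, while 13 components held 2, 3 held 3, 2 held 4 and 1 held 8, so that 51 of the 107 shared a component with another. The 107 are therefore not separate observations. Of the 75 components, 34 (45.3%) consisted of 1 contig, and in 11 of the 41 larger ones every contig was among the 107. Among the 7583 components of contigs with leaf counts and at least 100 counts in both root libraries, 36.6% consisted of 1 contig. These contigs numbered 2.19 per component, against 1.43 for the 107 and 1.46 for the contigs seen in leaf alone at the same limits. None of the 75 components held a row labelled with an enzyme in the study's pathway drawing, whose 77 labelled rows lie in 33 other components. Since the choice left labelled rows out and only 33 of 167165 components hold one, nothing is read from this.

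Component 837 held 8 of the 107 among its 13 contigs. Their counts ran from 214 to 290 in root 2 and from 717 to 841 in root 4, the highest being those of TR8375|c210149_g1_i1 with 290 and 841 (34.0 ± 18.9 normalized CPM, n = 2). The other 5 contigs were similar, with 219 to 292 and 738 to 858 root counts, and had 1 or 2 leaf counts each. The whole component summed to 3271 counts for root 2 and 10009 for root 4, beside 6 leaf counts. The component was thus as a whole nearly restricted to the root libraries, at 398 normalized CPM in root.

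All 4 contigs of component 2357 were among the 107. They had 136 to 152 counts in root 2 and 692 to 743 in root 4, and the most abundant was TR23573|c104787_g1_i1 with 152 and 743 (26.3 ± 22.0 normalized CPM). Component 8383 held 4 of them among 7 contigs, with 147 to 197 counts in root 2 and 434 to 491 in root 4, led by TR83837|c210215_g1_i1 with 197 and 491 (20.8 ± 9.67). Both components were higher in root 4. Components 5613, 5160 and 15364 consisted of 3 contigs each, all among the 107. TR56133|c169363_g1_i1 had 355 counts in root 2 and 296 in root 4 (21.0 ± 6.04 normalized CPM), TR51603|c162070_g1_i1 had 169 and 156 (10.4 ± 2.28), and TR153641|c65516_g1_i1 had 110 and 116 (7.18 ± 0.905). On the normalized scale these 3 components were higher in root 2, by log2 ratios of -0.57, -0.50 and -0.39 in their summed counts.

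Among the 107, contigs of 1 component had nearly the same ratio between the root libraries. Other contigs of the components were not included here and could differ. In component 1246, for instance, TR12465|c32158_g1_i1 had 125 counts in root 2 and 77 in root 4, while its chosen contigs were higher in root 4. In the 19 components with 2 or more of the 107, the SD of the log2 ratio within a component was 0.19 when pooled, and the component means had an SD of 1.15 and ran from -2.33 for component 770 to 1.98 for component 2357. The range within a component was under 0.5 in 18 of the 19. The exception was component 11663, where TR116631|c22052_g1_i1 had 418 counts in root 2 and 227 in root 4 and TR116632|c22053_g1_i1 had 123 and 124. The ratios of a component had 1 sign in 18 of the 19, all but component 163631. In the 3780 components with 2 or more contigs with leaf counts at the same root limit, the SD within a component was 0.30 and that of the component means 0.61. Contigs of a component may share reads, which was not looked at here, so a small spread within it is not taken as independent evidence from each contig.

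**Figure D3:**
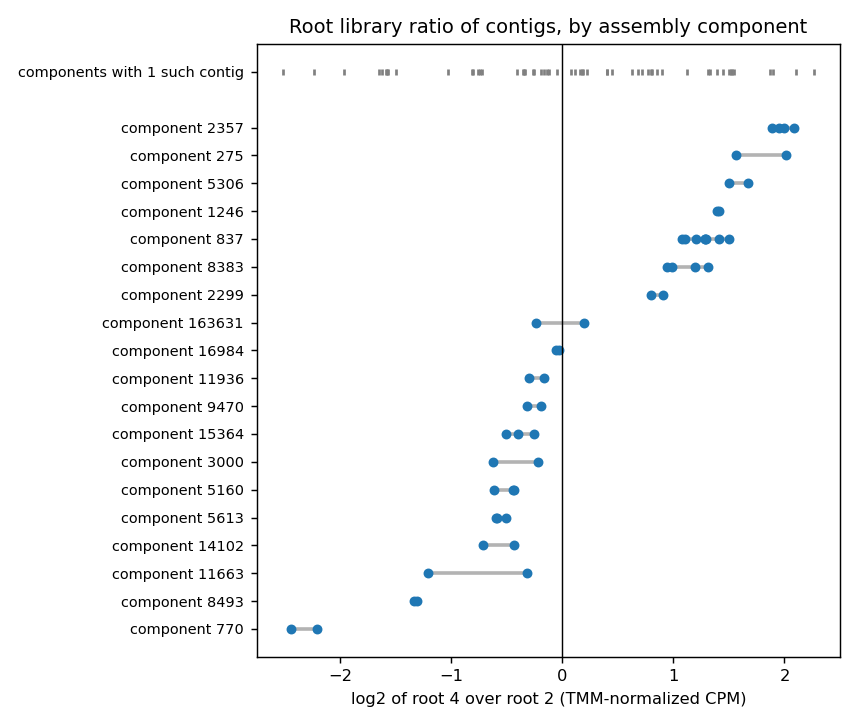
Log2 of root 4 over root 2 in TMM-normalized CPM (x axis) for the contigs seen in root alone. Each row of points is 1 of the 19 components with 2 or more such contigs, joined by a grey line, and the top row holds the contigs of the 56 components with 1. Points of a row lie close together while the rows spread from -2.44 to 2.09.

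Leaf counts were also looked for in the rest of each component. In 55 of the 75 components, holding 73 of the 107 contigs, no contig had a leaf count, and 21 of these 55 had several contigs. The choice itself fixed this for the 34 components of 1 contig and for the 11 made only of chosen contigs. Leaf counts were found in 20 components, all in contigs that were not chosen. In 16 components, with 29 of the 107, the leaf libraries held 1 to 16 counts in all. The remaining 4 components, with 5 of the 107, had from 682 to 3199 leaf counts in their other contigs. Had the limits been set on the summed counts of a component, which was tried after the values were seen, 127 components would have met them, 55 of them holding some of the 107 and 72 holding none.

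Component 1246 summed to 1432 and 1767 leaf counts and to 1295 and 3021 root counts. Of its 6 contigs, TR12463|c32156_g1_i1 (169 and 560 root counts) and TR12466|c32159_g1_i1 (106 and 356) were seen in root alone. The other 4 had 329 to 456 counts in each leaf library. TR12461|c32154_g1_i1 had a root level of 29.6 ± 11.2 normalized CPM beside a leaf level of 20.9, and edgeR's quasi-likelihood test gave a log2 fold change of 0.51 ± 0.33 (SE) with an FDR of 0.281. TR12465|c32158_g1_i1, with 125 and 77 root counts and 367 and 437 leaf counts, had the opposite direction, with -1.65 ± 0.39 (SE) and an FDR of 0.0220 by edgeR. The contigs of this component thus ranged from 0 leaf counts to a higher level in leaf, with a root to leaf ratio of the summed levels of 1.59.

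In component 10119, 1 of 16 contigs was seen in root alone. TR1011913|c1569_g1_i1 had 130 counts in root 2 and 447 in root 4, or 17.2 ± 11.3 normalized CPM. Each of the other 15 had from 3 to 27 counts in a root library and 3 to 53 in a leaf library, and a mean level of 1.33 normalized CPM or less in root. TR1011913|c1569_g1_i1 held 43.9% of the counts of the component in root 2 and 67.3% in root 4.

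In component 602, TR6021|c175834_g1_i1 held 21.1% of the counts in root 2 and 20.7% in root 4. Its neighbours TR6022|c175835_g1_i1, TR6023|c175836_g1_i1 and TR6024|c175837_g1_i1 had 1397 to 2615 counts in root 2, 595 to 1029 in root 4 and 104 to 147 in each leaf library. TR6025|c175838_g1_i1 had 356 and 211 root counts and 204 and 310 leaf counts, levels of 18.6 ± 9.48 normalized CPM in root and 13.1 in leaf that overlap between the tissues. Component 895 was led by TR8951|c218252_g1_i1, with 1328 and 3590 root counts and 399 and 610 leaf counts, and TR8952|c218253_g1_i1, with 1250 and 3452 root counts and 139 and 185 leaf counts. Beside them TR8953|c218254_g1_i1, seen in root alone, had 141 and 518 counts, 4.41% and 5.93% of the component. The summed root level was 11.6 times the leaf level in component 602 and 10.5 times in component 895, sums that include the contigs seen in root alone.

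**Figure D4:**
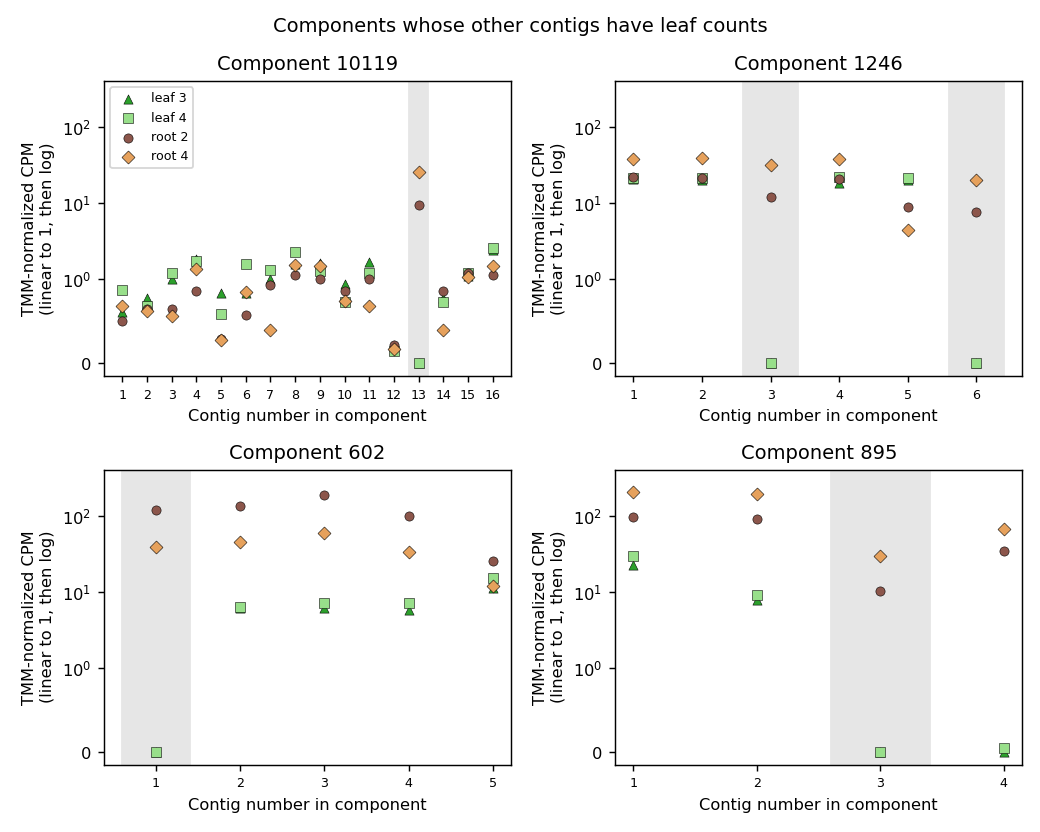
TMM-normalized CPM (y axes, linear to 1 and logarithmic above) of every contig of components 602, 1246, 895 and 10119 (x axes, contig number in the component). Symbols stand for the 4 libraries, and grey bands mark the contigs seen in root alone. In the bands the leaf symbols lie at 0 on each other, while the other contigs of components 602 and 1246 have mean leaf levels of 6.21 to 20.9.

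The 75 components hold 107 further contigs that the choice did not take. Of these, 48 also had 0 counts in both leaf libraries, 43 of them with at least 10 counts in each root library, and 24 had over 10 leaf counts in all. In component 1099, for instance, TR10995|c13411_g1_i1 had 113 and 411 counts and the other 12 contigs had 0 to 35 counts in root 2, 3 to 109 in root 4 and 0 in leaf, so that only 1 passed the limit. Taken over all 75 components, the contigs seen in root alone held 57.9% of the counts in root 2 and 54.9% in root 4. The share is 100% by construction in the 34 components of 1 contig and the 11 made only of these contigs. In the others it ran in root 2 from 4.41% in component 895 to 89.7% in component 2299.

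Root and leaf were compared over all 47385 contigs with over 1 CPM in at least 2 libraries by edgeR's quasi-likelihood test, and called at an FDR under 0.001 with at least 4-fold change. The 107 contigs all pass this filter because the choice requires it. Of the 47385, 0.443% were called higher in root, and of the 107, 8 were called. Since the choice used the same difference, nothing is read from this count. The 8 were TR39931|c142294_g1_i1, TR43311|c148204_g1_i1, TR30001|c123399_g1_i1, TR84001|c210463_g1_i1, TR1636311|c75109_g1_i1, TR74861|c197454_g1_i1, TR1636312|c75110_g1_i1 and TR30002|c123400_g1_i1. Their root levels ran from 24.1 ± 2.56 to 113 ± 6.28 normalized CPM, and their log2 ratios between the root libraries were 0.63 or less in size. The pairs from components 3000 and 163631 make up 4 of the 8, so they come from 6 components. The FDR over the 107 ran from 0.000879 to 0.00931. All 107 were called by edgeR's exact test and by DESeq2, which called 9.91% and 8.76% of the 47385 contigs higher in root, and 74 by limma-voom, which called 1.82%. Without leaf 3 the quasi-likelihood test called 73 of the 107 and 0.627% of all contigs tested. Without leaf 4 it called 0 of the 107 and 0 of 41468 contigs, with 107 and 10850 at an unadjusted p under 0.05. With the tested contigs kept, it called 107 without leaf 3, root 2 or root 4 (4.94%, 8.42% and 11.9% of all) and 106 without leaf 4 (1.07%). In these fits the lone library of a tissue was assumed to vary like the libraries of the other. The number of calls thus moved with the tool, the filter and the libraries.

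Among the other 107 contigs of the components, 89 were tested, and 80 had a higher estimate in root. The median log2 fold change over the 89 was 9.06, against 0.01 over all tested contigs. Fitted values of contigs with few or no leaf counts, however, depend on the small count that edgeR adds. Called higher in root were 4 of the 89, beside 0.443% of all contigs. TR75311|c198081_g1_i1 had 280 and 284 root counts and 2 counts in each leaf library, and TR8954|c218255_g1_i1 had 475 and 1172 against 0 and 1. TR33452|c130318_g1_i1 (260 and 244 against 1 and 0) and TR71863|c193138_g1_i1 (106 and 183 against 1 and 1) were the others. The 4 were picked by the call, so nothing is read from the lack of overlap between their tissues. Without leaf 3, with 86 of the other contigs tested, more of them were called, as were more of all tested contigs. Without leaf 4, edgeR called none of 41468 tested contigs, of which 10850 had an unadjusted p under 0.05, whereas with all libraries the exact test called 76 of the 89 (9.91% of all contigs) and DESeq2 75 (8.76%). These contigs may share reads with those that were chosen, so they are not taken as independent of the choice.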

How the data were processed

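RNA of leaf (leaf 3, leaf 4) and root (root 2, root 4) was sequenced on an Illumina HiSeq instrument. The authors aligned the reads to the BinPacker assembly with Bowtie, estimated abundances with RSEM and deposited 1 table of estimated counts per contig. Versions of Bowtie and RSEM are not given in the sources used here. All values were whole numbers, so none was rounded here, and all 4 columns were used. Assigning shared reads among similar contigs can place a contig at 0.

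From these counts, those above 1 CPM in 2 or more libraries were fitted with edgeR 4.0.16 (R 4.3.3) as stated in the report. P-values were adjusted by Benjamini-Hochberg over 47385 contigs, and standard errors were derived from the fold change and its F statistic. DESeq2 1.42.0, limma 3.58.1 (voom), other scalings, filters and limits, and each library left out were alternatives. Components were read from the identifiers, and all 167164 pairs of neighbouring component numbers followed 1 sort order.

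The contigs and lists were chosen with earlier results of these data known. Named contigs follow a written rule (the most abundant, the largest components, the ends of the root ratio, the edges of the limits, the called contigs). Components 1246, 10119, 602, 895, 1099 and 11663, their contigs, and the called contigs among the rest of the components were singled out after their values were seen. Sequences of the contigs were not used here.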

Additional observations from a re-analysis of the deposited data

How the results depend on the processing

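The number of contigs seen in root alone stayed within 1.5 times under a limit of 5 CPM (126), without leaf 3 (156) and without leaf 4 (157), and moved in the others: 301 at 50 counts, 39 at 200 counts and 172 with up to 1 count in each leaf library. Leaving out a library gave 156 to 552. Their components numbered 213, 26, 115 and 109 to 346 under the same settings, and 127 with limits on summed counts. The share of all root counts was 0.224%. It became 0.355% at 50 counts, 0.138% at 200 counts and 0.440% with up to 1 count in each leaf library. Without leaf 3 it was 0.363% and without leaf 4 0.392%. Without a root library the share was taken over the one kept. It was 0.792% of root 4 and 0.355% of root 2, where the 107 held 0.305% and 0.161%. Calls among the 107 contigs were 107 with the exact test, DESeq2, no filter or an FDR under 0.05 (9.91%, 8.76%, 3.49% and 10.6% of all tested contigs were then called higher in root), 74 with limma-voom (1.82%) and 21 with library totals (0.538%), which moved the median log2 fold change of all tested contigs from 0.01 to -0.10. They ran from 0 to 107 with a library left out (73 without leaf 3, 0 without leaf 4, 106 without leaf 4 with the tested contigs kept, where the 0 stands beside 10850 of 41468 contigs, the 107 among them, at an unadjusted p under 0.05 in edgeR). Calls among the other 89 tested contigs of the components were 76 with the exact test (9.91% of all) or an FDR under 0.05 (10.6%). With DESeq2 they were 75 (8.76%) and with limma-voom 25 (1.82%). With no filter they were 78 of 107 (3.49%). They were 7 of 89 with DESeq2 size factors (0.536%) and 7 of 100 with at least 10 counts in 2 libraries (0.46%). With a library left out they ran from 0 to 76 (without leaf 3, 13, or 69 with the tested contigs kept, and without leaf 4, 0 or 28). The cause of these moves was not tested. Shares of all tested contigs called with leaf 3 or leaf 4 left out are given in the results. Without root 2 or root 4 and with the filter applied anew, none of the 107 could be tested, since each then passes 1 CPM in a single library. The settings that keep the tested contigs and that sum components were added after seeing the data. No paired analysis was possible because the tissues share a single replicate number. A precision below 1 count in 15281682 is out of reach.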
